A study of Mus musculus with 6 samples.

Results

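The genes described here are Stat2, Stat3, Stat4, Stat5a, Stat5b and Stat6, members of the family of signal transducers and activators of transcription (STATs). They are 6 of the 49315 genes in the count table and were found by their GENCODE M21 symbols. They were chosen on the contrast of skin against lymph node Tregs itself, in which Stat6 was set against its paralogs. Their differences between the tissues are therefore given as a description, and how many of them passed the threshold of the fit over all genes is given once, as a count from which nothing is read.

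Bulk RNA-seq was performed on regulatory T cells (Tregs, a CD4+ lineage that depends on the transcription factor Foxp3 and holds immune responses in check) of skin and of skin-draining lymph nodes (SDLNs). Both groups came from Foxp3-GFP mice that were 9 days old and on a C57BL/6J background, in which cells with an active Foxp3 gene fluoresce green. The study used male and female mice without recording individual sex, so the sexes in each pool are not known. Cells of 3 mice were pooled into each of 3 samples per tissue, and after digestion and enrichment on CD45 beads, live CD45+ CD4+ Foxp3-EGFP+ cells were sorted into lysis reagent. The labels give all samples batch 1 and the tissue skin, so that only the sample titles separate the groups. The libraries are named by tissue and by the letter A, B or C of their column.

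STATs carry the signals of cytokines to the nucleus. A cytokine brings its receptor chains together, the Janus kinases (JAKs) bound to these chains phosphorylate a STAT, and the STAT pairs up with another and binds DNA. In T cells STAT5A and STAT5B act downstream of IL-2 and are needed for Foxp3 expression. Across cell types, STAT6 acts downstream of IL-4 and IL-13, STAT3 of IL-6, IL-10 and related cytokines, STAT4 of IL-12, and STAT2 of type I interferon.

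The libraries were unequal in depth and content. Where 3 values are given for a tissue, they are those of its libraries A, B and C in this order. Total counts were 116158706, 72799278 and 47243498 in SDLN and 3748669, 11741784 and 9033442 in skin. The SDLN libraries held 12397 to 13002 genes at 1 CPM (counts scaled to the library total) or more, and the skin libraries 2911 to 5317. Since a count of 0 allows up to 3, genes with no more than 3 counts are described as at the floor. The floor was 0.0258 to 0.0635 CPM in the SDLN libraries and 0.255 to 0.800 CPM in the skin libraries. No molecular identifiers were described, so that intervals and floors cover counting error only. In bulk samples, fewer cells of a type and less RNA per cell cannot be told apart.

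The label Treg was checked against 8 Treg markers. Il2ra, Ctla4, Ikzf2, Tnfrsf18 and Cd3g were over the floor in all 6 libraries. Foxp3 had 12208, 10133 and 1788 counts in SDLN and 0, 330 and 1 in skin. Cd4, whose protein was used for the sort, had 0, 1861 and 2 counts in the skin libraries, so that these defining markers were at the floor in skin Tregs A and C. Of the 8, Ctla4 was higher in skin (adjusted p 0.0447 in edgeR) and the others were not called. The summed level of the 8 was 5158 to 6784 CPM in SDLN and 4109 to 6651 CPM in skin. Markers of macrophages and dendritic cells summed to 444 to 778 CPM in SDLN and to 34440 to 62710 CPM in skin, and 14 of the 17 tested were higher in skin in edgeR, where 1.04% of all genes tested were. B cell markers summed to 61.0 to 91.4 CPM in SDLN and 0 to 2.66 CPM in skin, and 4 of 5 genes tested were lower, where 45.3% of all genes tested were. Keratinocyte markers summed to at most 9.59 CPM in any library, with Krt14 at 0 in all 6. Fibroblast markers summed to at most 7.56 CPM in SDLN and to 0, 90.6 and 0.775 CPM in skin. In skin Tregs B, the library in which Stat2, Stat5a and Stat5b were over the floor, Col3a1 was at 50.5, Col1a2 at 37.05 and Col1a1 at 3.07 CPM, and Dcn, Lum and Pdgfra had 0 counts. Among the skin libraries, B also had the highest total count and alone had Foxp3 and Cd4 over the floor. Mast cell and granulocyte markers summed to at most 27.4 CPM in any library. STAT genes are used by many cell types, and the part of non-Treg cells in the skin values was not tested.

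The members are paralogs, and how alike their transcripts are bears on how reads could be assigned. Over aligned bases of the longest coding sequence of each gene, Stat5a and Stat5b were 90.3% identical, Stat3 and Stat4 56.7%, and Stat6 was closest to Stat5a at 54.6% and Stat5b at 54.4%. The other pairs lay between 42.9% and 50.8%. The stretch of 60 coding bases with the most bases common to all 6 members is shown to let the genes be compared letter by letter, from GENCODE M21 on GRCm38. It lies in exon 12 of Stat6 (chr10:127654938-127654997, plus strand), Stat5a (chr11:100879291-100879350, plus strand) and Stat5b (chr11:100794565-100794624, minus strand). In Stat3 (chr11:100895091-100895150, minus strand), Stat4 (chr1:52098399-52098458, plus strand) and Stat2 (chr10:128283496-128283555, plus strand) it lies in exon 16. Capitals mark the 22 bases that all 6 share, and the sequences run 5′ to 3′ along the coding strand.
Stat6: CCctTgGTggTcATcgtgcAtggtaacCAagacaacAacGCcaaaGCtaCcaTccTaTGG
Stat5a: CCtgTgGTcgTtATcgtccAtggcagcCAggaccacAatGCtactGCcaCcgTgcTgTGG
Stat5b: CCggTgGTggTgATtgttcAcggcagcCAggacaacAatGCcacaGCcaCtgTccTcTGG
Stat3: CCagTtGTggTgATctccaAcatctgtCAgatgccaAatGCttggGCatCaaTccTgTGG
Stat4: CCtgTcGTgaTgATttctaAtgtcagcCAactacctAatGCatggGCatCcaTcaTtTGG
Stat2: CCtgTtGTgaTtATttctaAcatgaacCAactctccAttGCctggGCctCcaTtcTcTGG

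Even in this stretch a majority of the bases differed between at least some of the members. Of all stretches of 50 bases in Stat6 transcripts, 0 occurred in a GENCODE transcript of another gene on either strand. The share was 0.79% for Stat2, 0.55% for Stat3, 8.52% for Stat5a, 10.98% for Stat5b and 21.7% for Stat4. At 150 bases, the length of the reads, it was 0 for Stat2, Stat3 and Stat6, 2.21% for Stat5a, 3.16% for Stat5b and 16.9% for Stat4. The Stat4 stretches all lay in the overlapping noncoding gene Gm28177. The Stat5a and Stat5b stretches all came from the other gene of the pair at this length. The longest run that both share is 324 coding bases, spread over exons 6, 7 and 8 of each. Its part in exon 7 (chr11:100874339-100874490, plus strand, in Stat5a and chr11:100798234-100798385, minus strand, in Stat5b) is shown because reads that fall inside it cannot be told apart.
Stat5a and Stat5b, exon 7: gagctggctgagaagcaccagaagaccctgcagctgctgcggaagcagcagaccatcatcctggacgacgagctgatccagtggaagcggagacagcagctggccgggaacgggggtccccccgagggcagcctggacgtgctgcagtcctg

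Positions matter for counting as well. Stat6 (ENSMUSG00000002147) lies on the plus strand at chr10:127642986-127660957 and Stat2 (ENSMUSG00000040033) on the same strand at chr10:128270559-128292849, with 609601 bases between them. Stat5b (ENSMUSG00000020919, chr11:100780731-100850724, minus strand), Stat5a (ENSMUSG00000004043, chr11:100859351-100885169, plus strand) and Stat3 (ENSMUSG00000004040, chr11:100885098-100939540, minus strand) are neighbours on chromosome 11. Stat5b and Stat5a are 8626 bases apart, and the ends of Stat5a and Stat3 overlap by 72 bases. Stat4 (ENSMUSG00000062939) is at chr1:51987148-52107189 on the plus strand and shares 1033 exon bases, 26.7% of its own, with the noncoding gene Gm28177 on the same strand. Stat6 shares 40 exon bases with Nab2 on the opposite strand. The strand setting of the counting is not given in the sources used here, and reads in such shared bases are uncertain.

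Stat6, the STAT of IL-4 and IL-13 signalling, was abundant in every SDLN library and at the floor in every skin library. Its counts were 39479, 26387 and 9873 in SDLN and 0, 1 and 0 in skin. In CPM these were 340, 362 and 209 in SDLN and 0, 0.0852 and 0 in skin, with means of 304 ± 82.9 and 0.0284 ± 0.0492 CPM (SD, n = 3 each). The single skin count gave a ratio of SDLN to skin over pooled counts of 7864, with a 95% interval from counting error of 1411 to 310600. The highest skin library lay far below the lowest SDLN library. When each library was drawn down to 3748669 counts, the total of the smallest one, SDLN still held 1236, 1376 and 756 Stat6 counts, against 0, 1 and 0 in skin.

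Stat4, which carries the IL-12 signal in type 1 responses, had 0 counts in all 3 skin libraries. It had 8208, 5017 and 2365 counts in SDLN, or 70.7, 68.9 and 50.1 CPM, a mean of 63.2 ± 11.4 CPM (SD, n = 3). Against the floor of 3 counts over the pooled skin libraries, the pooled level was at least 539-fold higher in SDLN. This bound covers counting error only, not the spread between skin libraries. Drawn down to equal totals, the SDLN libraries held 256, 255 and 193 Stat4 counts.

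Stat5a and Stat5b, the IL-2 responsive pair, differed from each other in skin Tregs B and were at the floor in skin Tregs A and C. Stat5a had 11769, 9278 and 3855 counts in SDLN and 0, 1524 and 2 in skin. In CPM this was 101, 127 and 81.6 in SDLN and 0, 129.8 and 0.221 in skin, so that skin Tregs B lay above every SDLN library while skin Tregs A and C were at the floor. The means were 103.5 ± 23.0 CPM in SDLN and 43.3 ± 74.9 CPM in skin (SD, n = 3 each), with a fitted log2 fold change of -1.18 (SE 2.64), skin over SDLN.

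Stat5b had 20750, 14003 and 6230 counts in SDLN and 0, 263 and 0 in skin. In CPM this was 179, 192 and 132 in SDLN and 0, 22.4 and 0 in skin. The groups did not overlap, and mean levels were 168 ± 31.7 and 7.47 ± 12.9 CPM (SD over 3 libraries), with a fitted log2 fold change of -4.42 (SE 2.91). Stat5a made up 36.2%, 39.9% and 38.2% of the counts of the pair in SDLN and 85.3% in skin Tregs B (exact 95% interval from counting error 83.6% to 86.9%). The pair had 0 and 2 counts in skin Tregs A and C, so that this share has no spread over skin libraries and was not compared between the tissues.

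Stat2, which joins Irf9 in the type I interferon signal, had 8802, 7161 and 2391 counts in SDLN and 0, 237 and 0 in skin. This was 75.8, 98.4 and 50.6 CPM in SDLN and 0, 20.2 and 0 CPM in skin. The groups did not overlap, and mean levels were 74.9 ± 23.9 and 6.73 ± 11.7 CPM (SD over 3 libraries), with a fitted log2 fold change of -3.40 (SE 2.77). As for both STAT5 genes, the skin mean rested on library B.

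Stat3, the STAT of IL-6 and IL-10 signalling, was the one member over the floor in every skin library. It had 63172, 34699 and 22202 counts in SDLN and 1302, 6909 and 1161 in skin. In CPM this was 544, 477 and 470 in SDLN and 347, 588 and 129 in skin. Skin Tregs B lay above the SDLN range and skin Tregs A and C below it. Mean levels were 497 ± 40.9 and 355 ± 230 CPM (SD over 3 libraries), a difference smaller than the SD of the skin libraries, with a fitted log2 fold change of -0.55 (SE 0.626).

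**Figure D1:**
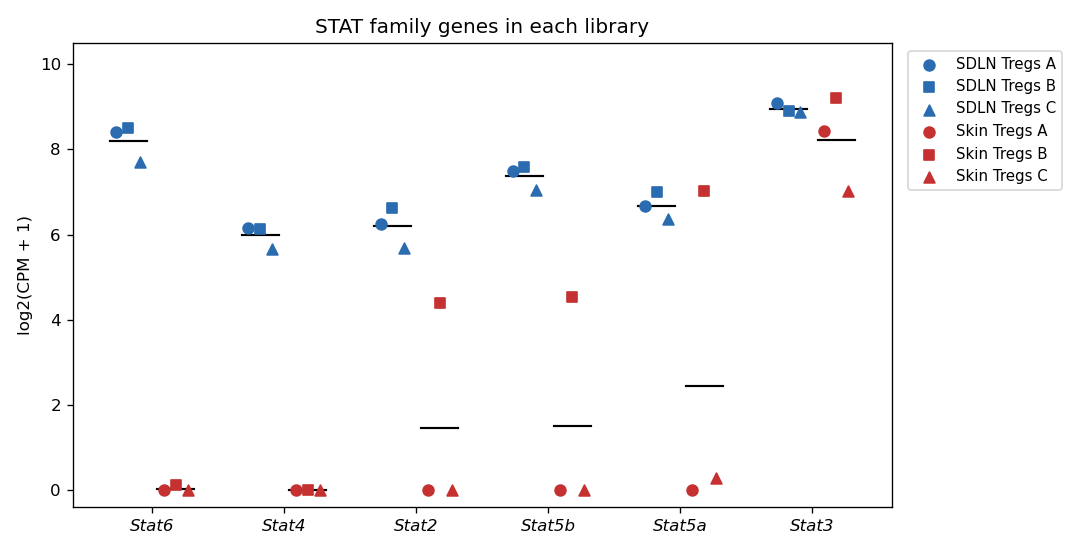
Level of the 6 STAT genes in each library as log2(CPM + 1). Each point is a library (blue, SDLN Tregs; red, skin Tregs; circle, square and triangle for A, B and C) and each black line the mean of 3 libraries on this scale. Stat6 and Stat4 sit at or near 0 in all skin libraries, Stat2, Stat5b and Stat5a are raised above 0 only in skin Tregs B, apart from 0.221 CPM of Stat5a in skin Tregs C, and Stat3 is present in all.

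In edgeR fitted to all 13572 genes that passed the low-count filter, all 6 members were tested, and 2, Stat4 and Stat6, were called lower in skin, where 45.3% of all genes tested were. None was called higher, where 1.04% of all genes tested were. In the fit without skin Tregs B, 5 of 6 were called lower, with Stat2, Stat5a and Stat5b added, where 48.9% of the 15927 genes tested were. The contrast had chosen the members, so nothing is read from these counts.

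The make-up of the STAT counts followed from these levels. The 6 genes summed to 1310, 1326 and 993 CPM in SDLN and to 347, 761 and 129 CPM in skin. Stat6 made up 25.9%, 27.3% and 21.04% of the summed counts in the SDLN libraries. In skin it made up 0 of 1302 counts in library A (exact 95% upper limit 0.283%), 0.0112% in library B (upper limit 0.0624%) and 0 of 1163 counts in library C (upper limit 0.317%). Stat3 made up 41.5%, 35.9% and 47.3% of the sum in SDLN. Its share was 100%, 77.3% and 99.8% in skin. The sums behind the skin shares were 1302, 8934 and 1163 counts.

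**Figure D2:**
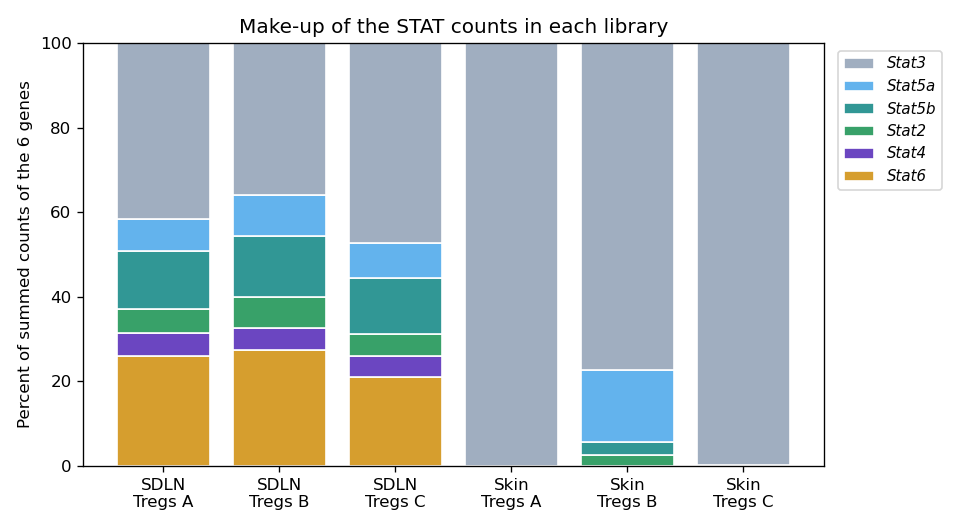
Percent of the summed counts of the 6 STAT genes taken by each gene, by library. Stat6 takes 21.04% to 27.3% in the SDLN libraries and at most 0.0112% in the skin libraries, where Stat3 takes 77.3% to 100%.

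Levels of different genes were compared per length, as RPKM (CPM per kilobase of gene length). With the union of exons as length, the order in SDLN Tregs was Stat6 at 69.0 ± 18.8, Stat3 at 52.2 ± 4.29, Stat5b at 30.3 ± 5.72, Stat4 at 16.3 ± 2.95, Stat5a at 14.5 ± 3.22 and Stat2 at 12.6 ± 4.03 RPKM (SD, n = 3). Stat6 lay above Stat3 in 2 of 3 libraries, and their ranges overlapped. Stat3 and Stat5b, and Stat5b and Stat4, were apart in all 3 libraries. The ranges of Stat4, Stat5a and Stat2 overlapped with their neighbours. The length mattered for the top of the order. Stat3 came first with the coding length, at 215 RPKM against 121 RPKM for Stat6, and apart from it in all libraries. With the longest transcript the means were 82.2 RPKM for Stat3 and 80.5 RPKM for Stat6, which lay higher in 2 of 3 libraries.

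**Figure D3:**
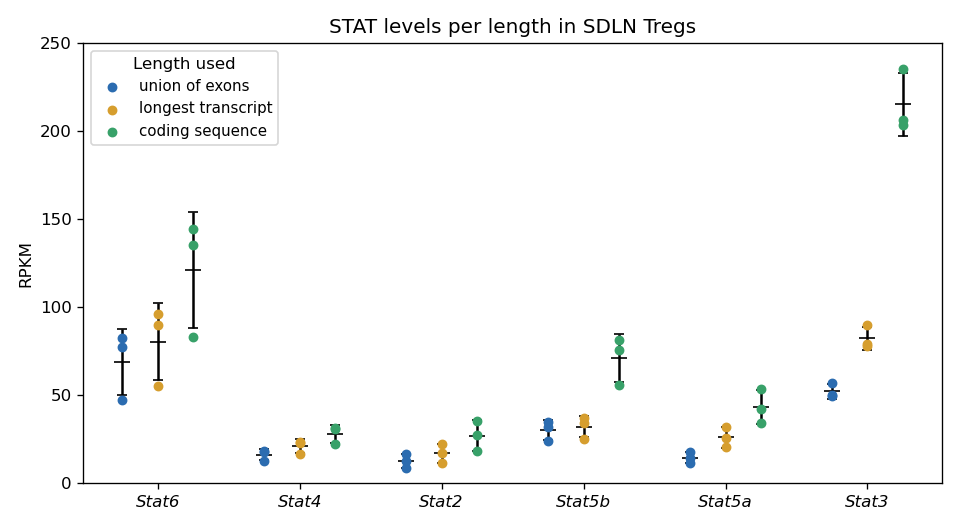
RPKM of the STAT genes in SDLN Tregs with each of 3 gene lengths. Points are the 3 libraries, and black bars show the mean and SD. Stat6 and Stat3 have the highest means with each length, Stat6 ahead with the union of exons (69.0 against 52.2) and Stat3 ahead with the coding sequence (215 against 121).

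The members also varied among the SDLN libraries. The coefficient of variation of the level was 8.23% for Stat3 and 18.1% to 31.9% for the others. SDLN Tregs C was the lowest library for 6 of 6 members in CPM. It was also the lowest for 59.7% of the 77 other JAK-STAT pathway genes tested and for 46.7% of all 13572 genes tested. After TMM scaling, Stat3 was lowest in SDLN Tregs B instead (452 against 511 CPM in C), whereas Stat6 remained lowest in C (227 CPM against 343 and 349.5 in B and A).

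Many genes other than STATs were at the floor in skin, in shares that differed with their CPM in SDLN. CPM is used here since counts, not levels per length, set whether a gene is detected. Of 2066 genes at 50 to 100 CPM in SDLN on average, the range of Stat2 and Stat4, 22.4% were at the floor in all of the 3 skin libraries. Of 1282 genes at 100 to 200 CPM, the range of Stat5a and Stat5b, 10.1% were. Of 784 genes at 200 to 500 CPM, the range of Stat6 and Stat3, 22 or 2.81% were. Within this last range 46.6% of genes were at the floor in skin Tregs A, 9.18% in B and 13.9% in C. There were 561 genes with an SDLN mean at or above that of Stat6, and 5 of them were at the floor in every skin library. Among them were Izumo1r, Gimap4, Arpc5l and Stat6 itself, of which all but Stat6 were named after their values were seen.

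**Figure D4:**
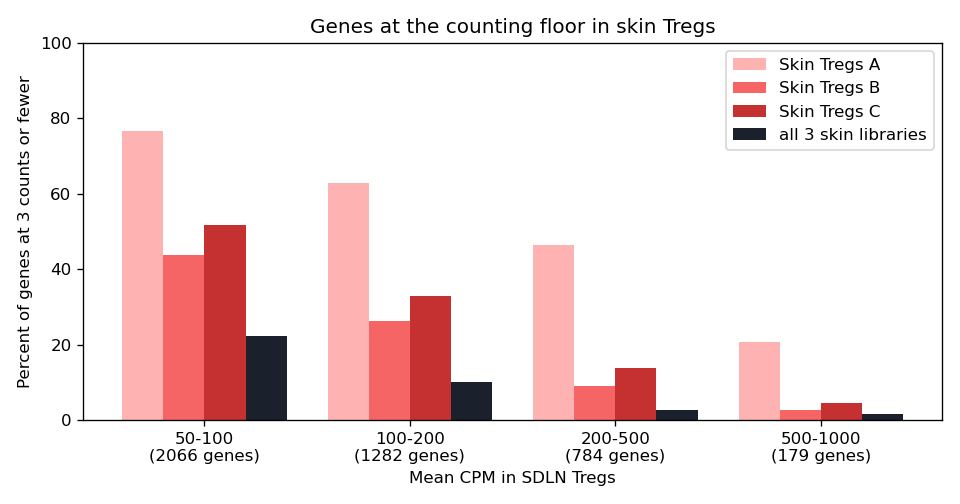
Percent of genes at 3 counts or fewer in each skin library and in all 3, by mean level in SDLN Tregs. The black bars, genes at the floor in all of the 3 skin libraries, go from 22.4% at 50 to 100 CPM to 2.81% at 200 to 500 CPM, the range that holds Stat6.

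The genes whose log2(CPM + 1) followed that of Stat6 most closely over the 6 libraries were Def6 (Pearson's r 0.982), Csnk1d (0.978), Cnn2 (0.974), B4galnt1 (0.969) and Rps7 (0.958), among 5228 genes that reached a mean of 10 CPM in both groups. The libraries fall into 2 tissues that also differ in depth, and r is given as a description. Stat6 itself did not reach that mean in skin, so that genes with a skin level like its own were not among the candidates. Def6, for example, was at 267, 256 and 201 CPM in SDLN and at 102, 85.9 and 103 CPM in skin. By Euclidean distance on the same scale the closest genes were Slc9a3r1, Pik3cd, Eif3a, Aldh18a1 and Ints11, and 0 of the 5 were shared with the first set.

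The genes around the STATs were followed through 12 lists with 86 genes in all, of which 77 passed the filter. In edgeR, 26 were lower in skin, 3 were higher and 48 were not called, that is 33.8% and 3.90% of those tested against 45.3% and 1.04% of all genes tested. Their median log2 fold change was -2.08, against -2.21 over all genes tested. Of the 26, 23 were at the floor in every skin library. Such genes passed the low-count filter through their SDLN level alone. The p-values rest on the spread between 3 pooled samples a group, and are those of the edgeR quasi-likelihood test with Benjamini-Hochberg adjustment unless DESeq2 is named.

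Of the Janus kinases, Tyk2, which serves interferon and IL-12 family receptors, was lower in skin, and the other 3 were not called. Tyk2 was at 113, 125 and 45.3 CPM in SDLN and at the floor in every skin library (adjusted p 0.0187 in edgeR). This call was lost in the 3 fits without an SDLN library, with adjusted p from 0.0525 to 0.0595. Jak2, which also acts downstream of interferon-gamma, was the one kinase over the floor in every skin library, at 370, 29.9 and 215 CPM, against 45.98 ± 6.62 CPM in SDLN (SD, n = 3, log2 fold change 2.02 with an SE of 1.20, adjusted p 0.279 in edgeR). It was called higher in DESeq2 (adjusted p 0.0406) and without skin Tregs B (adjusted p 0.049). Jak1, shared by most of these receptors, was at 0, 338 and 759 CPM in skin and at 983 ± 217 CPM in SDLN. Jak3, the partner of the gamma chain, was at 0, 64.5 and 0.221 CPM in skin and 206 ± 110 CPM in SDLN. It was called lower only in the fit without skin Tregs B (adjusted p 0.015).

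Among 10 receptor chains of the gamma chain, IL-4, IL-13 and TSLP group, 3 were lower in skin and 0 higher. These were Il7r, Il15ra and Il21r, all at the floor in every skin library, from SDLN means of 93.2 ± 23.0, 10.2 ± 2.73 and 139 ± 52.3 CPM (SD, n = 3, adjusted p 0.0175, 0.00322 and 0.016 in edgeR). Il7r lost its call in all fits without an SDLN library and Il21r in 2 of these 3. The IL-2 receptor chains were over the floor in all libraries. Il2ra was at 1047 ± 291 CPM in SDLN and 1301 ± 861 in skin, and Il2rg, the gamma chain itself, at 1966 ± 908 and 2084 ± 1444. Il2rb was at 720 ± 385 CPM in SDLN and 278 ± 129 in skin (log2 fold change -1.44 with an SE of 0.624, adjusted p 0.129 in edgeR). Il4ra, through which IL-4 and IL-13 reach STAT6, was at 200, 182 and 74.8 CPM in SDLN and 0, 148 and 0 in skin (adjusted p 0.837). Unlike Stat6, it was therefore present in skin Tregs B at a level inside the SDLN range. Without that library it was called lower (adjusted p 0.00827). Il13ra1, the chain that joins it in the IL-13 receptor, was at 2.63, 0.316 and 0.720 CPM in SDLN and 0, 21.9 and 277 CPM in skin (log2 fold change 6.64 with an SE of 3.20, adjusted p 0.174 in edgeR). It was called higher in DESeq2 (adjusted p 0.00393) and without skin Tregs A (adjusted p 0.0348), and without skin Tregs C its log2 fold change was 3.11 (adjusted p 0.284).

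Among the gp130, IL-10, IL-12, IL-23 and IL-27 receptor chains, 7 of 10 were tested and 1 was lower in skin, Il10ra. It was at 50.9 ± 14.7 CPM in SDLN (SD, n = 3) and at the floor in every skin library (adjusted p 0.00799 in edgeR). Il6st, the gp130 chain used upstream of STAT3, was at 247 ± 79.0 CPM in SDLN and at 0, 11.2 and 23.6 CPM in skin (log2 fold change -4.15 with an SE of 2.13, adjusted p 0.204). It was called lower without skin Tregs A (adjusted p 0.0143) and in DESeq2 (adjusted p 0.0161). Il6ra was at 48.3, 0 and 0.221 CPM in skin and 163 ± 51.6 CPM in SDLN, and was called lower without skin Tregs A (adjusted p 0.014). Il27ra was at 58.7 CPM in skin Tregs B and at the floor in the others, against 126 ± 45.9 CPM in SDLN, and was called lower without that library (adjusted p 0.00846). Lifr, the receptor chain of LIF, was at 2.42 ± 0.835 CPM in SDLN and at 0, 191 and 379 CPM in skin (log2 fold change 6.54 with an SE of 2.85, adjusted p 0.131 in edgeR). It was called higher in DESeq2 (adjusted p 0.00201) and without skin Tregs A (adjusted p 0.00581).

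Of 4 interferon receptor chains tested, Ifnar2 was lower in skin. It was at 62.97, 62.7 and 55.3 CPM in SDLN and at 0 in all skin libraries (adjusted p 0.00721 in edgeR). Its partner Ifnar1 was at 299 ± 24.2 CPM in SDLN (SD, n = 3) and at 0, 182 and 527 CPM in skin. Ifngr1 was at 308 ± 19.8 CPM in SDLN and 0.800, 622 and 385 CPM in skin, and Ifngr2 at 63.3 ± 2.92 and at 344, 0.170 and 1.44 CPM. Skin Tregs A was low for Ifnar1 and Ifngr1 and was the only skin library with a high value of Ifngr2.

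Inhibitors of the pathway differed among themselves. Of 8 SOCS family genes, whose products block JAKs and receptors, 3 were lower and 0 higher. Socs5 and Socs7 had SDLN means of 10.4 ± 7.71 and 12.4 ± 2.29 CPM (SD, n = 3) and 0 counts in skin (adjusted p 0.0073 and 0.00322 in edgeR). Socs1 was at 160, 148 and 91.9 CPM in SDLN and at 0, 1.62 and 0.111 CPM in skin (log2 fold change -7.73 with an SE of 2.34, adjusted p 0.0385), a call held in 4 of 11 alternatives. Cish, a feedback gene of STAT5, was at 98.2 ± 23.5 CPM in SDLN and at 0, 39.0 and 2.10 CPM in skin (adjusted p 0.492). Socs2, another STAT5 feedback gene, was over the floor in every skin library, at 233, 296 and 82.3 CPM against 72.8 ± 12.04 CPM in SDLN (log2 fold change 1.39 with an SE of 0.937, adjusted p 0.354). DESeq2 called it higher (adjusted p 0.023).

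Of 9 PIAS and phosphatase genes, Pias2, Pias3 and Ptpn1 were lower in skin and 0 higher. PIAS proteins bind STATs, and Ptpn1 encodes the phosphatase PTP1B, which acts on JAKs. Ptpn1 was at 281 ± 20.1 CPM in SDLN and at 0, 0.0852 and 0 CPM in skin (adjusted p 0.00349 in edgeR). Pias2 was at 28.3 ± 6.38 and Pias3 at 31.7 ± 14.4 CPM in SDLN (SD, n = 3, adjusted p 0.0033 and 0.0188). Pias3 lost its call in the 3 fits without an SDLN library (adjusted p 0.0505 to 0.0582). Ptpn6, the phosphatase SHP-1, was at 372 ± 14.7 CPM in SDLN and at 0, 0 and 17.1 CPM in skin (adjusted p 0.201). It was called lower without skin Tregs C (adjusted p 0.00418) and in DESeq2 (adjusted p 0.0212). Ptprc, which encodes CD45, was at 2186 ± 602 and 1944 ± 854 CPM, and Pias1 was at 925, 368 and 0.554 CPM in skin against 204 ± 13.3 CPM in SDLN.

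Of 6 nuclear partners, the acetyltransferase gene Ep300 and the coactivator gene Ncoa1 were lower, from 24.3 ± 11.4 and 16.9 ± 2.84 CPM in SDLN (SD, n = 3) to the floor in every skin library (adjusted p 0.00761 and 0.00322 in edgeR). Snd1, a coactivator that binds STAT6, was at 482, 233 and 2.21 CPM in skin and 171 ± 37.9 CPM in SDLN (adjusted p 0.972). Crebbp, the paralog of Ep300, was at 0, 678 and 1001 CPM in skin and 416 ± 87.7 CPM in SDLN. Irf9 was at 0, 25.4 and 0.111 CPM in skin and 143 ± 19.2 CPM in SDLN (adjusted p 0.344), and was called lower without skin Tregs B (adjusted p 0.00784).

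Calls among response genes went in both directions. Of 12 textbook STAT6 response genes, 7 were tested. Mrc1, which encodes the mannose receptor and is also on the macrophage and dendritic cell list, was higher in skin. It was at 1141, 269 and 300 CPM in skin and at 0, 0 and 0.106 CPM in SDLN (adjusted p 0.0103). It moved with the other called markers of that list, and its source was not tested. Socs1 and Fcer2a were lower, the latter from 2.18 ± 1.17 CPM in SDLN (SD, n = 3) to 0 in skin (adjusted p 0.00718 in edgeR). Gata3, the Th2 transcription factor and a STAT6 response gene, was at 1027 ± 464 CPM in SDLN and 996 ± 168 CPM in skin (SD, n = 3 each, log2 fold change -0.03 with an SE of 0.529, adjusted p 0.988 in edgeR), and Stat6 was at the floor in the same skin libraries.

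Of 8 STAT5 response genes, 1 was higher and 2 lower. Pim1, a survival kinase gene on the STAT5 and STAT3 lists, was at 552, 802 and 1410 CPM in skin and at 252, 137 and 236 CPM in SDLN, with no overlap (log2 fold change 2.24 with an SE of 0.694, adjusted p 0.0421 in edgeR). It was called in 5 of 12 alternatives. Bcl2, the survival gene, was at 111, 132 and 97.1 CPM in SDLN and at 0 in all skin libraries (adjusted p 0.0117), a call lost in the 3 fits without an SDLN library (adjusted p 0.0589 to 0.0634). Osm, which encodes oncostatin M, was at 28.9 ± 4.47 CPM in SDLN and 0 in skin (adjusted p 0.0033). Foxp3, itself on this list, and Il2ra are given above.

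On the STAT3 list Junb, an AP-1 subunit gene, was higher in skin. It was at 5544, 3288 and 1306 CPM in skin and 492, 581 and 461 CPM in SDLN (log2 fold change 2.55 with an SE of 0.377, adjusted p 0.00374 in edgeR), and was called in 12 of 12 alternatives. With Pim1, 2 of 9 genes tested were higher and 1 was lower. Mcl1, which encodes a survival protein, was at 116 ± 13.2 CPM in SDLN and at 510, 282 and 459 CPM in skin (log2 fold change 1.81 with an SE of 0.616, adjusted p 0.0575). The groups did not overlap, and the gene was called in 3 of 12 alternatives. Hif1a was at 392 ± 191 CPM in SDLN and 1421 ± 1058 CPM in skin (adjusted p 0.0698), and was called in DESeq2 (adjusted p 0.0172) and without skin Tregs C (adjusted p 0.0481).

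Of 10 STAT2 response genes, 5 were lower in skin, a share of 50% against 45.3% of all genes tested, and 0 were higher. Ifit1, Ifit3, Mx1, Irf7 and Rsad2, all induced by type I interferon, had 0 counts in every skin library. The 5 others were not called, and none of them was at the floor in every skin library. In SDLN, Irf7 was at 64.7 ± 11.2 CPM and Ifit1 at 47.7 ± 12.6 CPM (SD, n = 3, adjusted p 0.00806 and 0.0058 in edgeR). Bst2 was at 512, 78.1 and 0 CPM in skin against 52.3 ± 0.705 CPM in SDLN (adjusted p 0.785).

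Of 5 STAT4 response genes tested, Tbx21, Ifng and Il18rap were lower. Tbx21, which encodes the Th1 factor T-bet, was at 13.8 ± 5.09 CPM in SDLN (SD, n = 3) and at 0, 0.0852 and 0.775 CPM in skin (adjusted p 0.0219 in edgeR). Ifng and Il18rap had 0 counts in skin, against 3.52 ± 0.503 and 27.4 ± 13.7 CPM in SDLN (adjusted p 0.00322 and 0.00362). Furin was at 234, 147 and 149 CPM in skin and 30.4 ± 12.5 CPM in SDLN, with no overlap (log2 fold change 2.49 with an SE of 1.06, adjusted p 0.119), and was called in 1 of 12 alternatives, DESeq2.

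**Figure D5:**
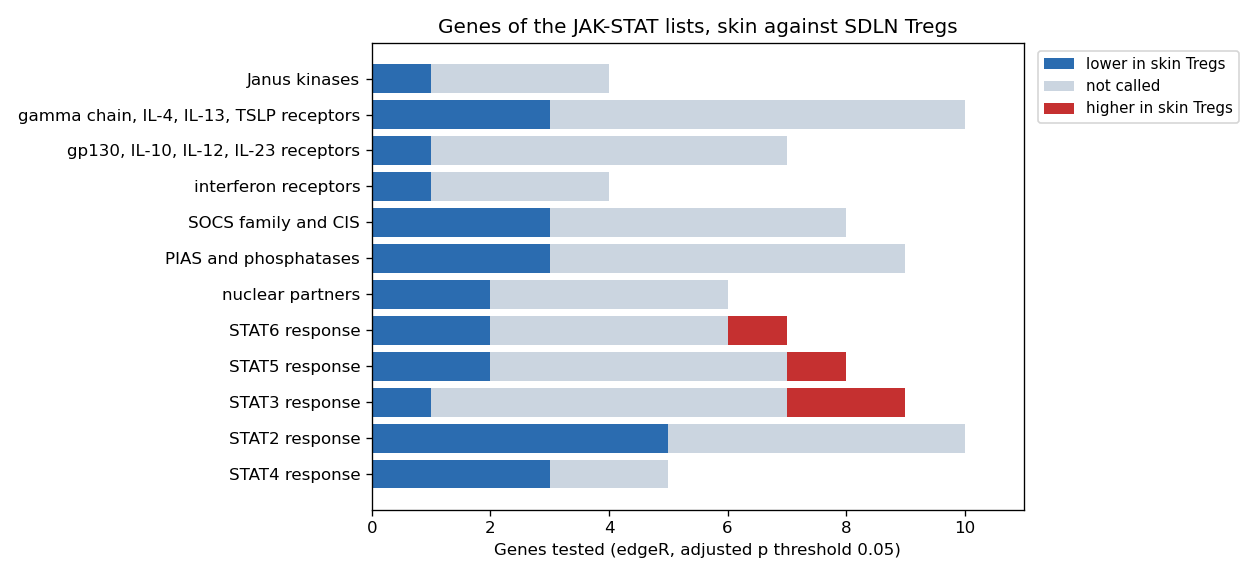
Number of tested genes of each JAK-STAT list that edgeR called lower in skin Tregs (blue), did not call (grey) or called higher (red) at an adjusted p threshold of 0.05. Higher calls appear in the STAT6, STAT5 and STAT3 response lists (Mrc1, Pim1 and Junb, with Pim1 on 2 lists), and lower calls were 5 of 10 in the STAT2 and 3 of 5 in the STAT4 response list, beside 45.3% of all genes tested.

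STAT dimers bind a short palindrome, and its letters were looked for in the promoters of the members and of their kinases, receptors and SOCS inhibitors. The patterns were TTCNNNGAA, the general STAT site, and TTCNNNNGAA, the wider spacing that STAT6 prefers. Each reads the same on both strands, and the matches shown do not share bases between the patterns. The windows were RefSeq promoters on GRCm38.p6, from 250 bases before to 50 bases after the start. The promoter table held the 6 members, the 4 Janus kinases, 4 of 8 SOCS genes and, in the order of the receptor lists above, 9 of 10, 6 of 10 and 5 of 5 chains. Of 27025 genes with promoters in the table, 9.55% held the first pattern in at least 1 promoter and 8.01% the second. None of the 6 members held the first, and Stat2 alone held the second. Of the inhibitors, Cish held the first pattern at 2 places and Socs3 at 1, and of the receptors, Il7r, Il12rb2, Ifnar1 and Ifnar2 held it and Ifngr2 held the wider one. None of the 4 Janus kinases held either. The matches of Stat2, of the feedback genes and of the called genes Il7r and Ifnar2 are shown with 10 bases on each side, the match in capitals.
Stat2 (chr10:128270278-128270307, plus strand): tcagtttcctTTCCCTAGAActcacggttc
Il7r (chr15:9530000-9530028, minus strand): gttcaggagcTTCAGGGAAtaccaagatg
Ifnar2 (chr16:91372559-91372587, plus strand): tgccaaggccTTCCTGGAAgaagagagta
Cish (chr9:107296649-107296677, plus strand): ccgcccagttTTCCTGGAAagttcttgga
Cish (chr9:107296660-107296688, plus strand): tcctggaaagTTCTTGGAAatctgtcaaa
Socs3 (chr11:117969502-117969530, minus strand): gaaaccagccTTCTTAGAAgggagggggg

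Of the genes shown, Il7r and Ifnar2 were lower in skin and Stat2 is described above. Socs3 was at 32.3 ± 8.11 CPM in SDLN (SD, n = 3) and at 0, 129.8 and 68.1 CPM in skin (adjusted p 0.831 in edgeR), and Cish was not called. A match says only that these letters lie in the window.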

How the data were processed

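Bulk RNA-seq of 3 pooled samples of skin Tregs and 3 of SDLN Tregs was analysed. Per the labels and methods, the authors trimmed reads with Trimmomatic 0.36, mapped them to GRCm38 with STAR 2.5.2b and deposited raw counts of uniquely assigned exon reads per Ensembl gene (featureCounts, Subread 1.5.2). Annotation release, strand setting and handling of duplicates are not given in the sources used here. GENCODE M21 named 49056 of 49315 genes. Some genes are not reported here.

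Counts were tested in edgeR 4.0.16 (R 4.3.3; filterByExpr, TMM, quasi-likelihood F test with robust estimation, tissue as the only term), with Benjamini-Hochberg adjustment over all genes tested and a threshold of 0.05. SEs were derived from the F statistic. The script was tested on simulated data. Alternatives were DESeq2 size factors, DESeq2 1.42.0, other filters, equal depth, leaving out each library and, chosen after seeing the data, a replicate block on the column letter. Coding sequences were aligned with MAFFT 7.526.

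Members and lists were chosen with earlier results of these data known. Named are the members, list genes that passed the threshold or were over the floor in all skin libraries, the 3 most abundant of each list in SDLN, the 5 genes most like Stat6 and defining markers. Col3a1, Col1a2, Dcn, Lum, Pdgfra, Il13ra1, Lifr, Crlf2, Il12rb1, Bcl3, Socs3, Socs6 and Oas1a were named after their values were seen.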

Additional observations from a re-analysis of the deposited data

How the results depend on the processing

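The columns share the letters A to C across tissues, but no source says that a letter marks shared mice. Deviations from the group means of SDLN and skin libraries with the same letter correlated over genes with r of 0.02, -0.02 and 0.08 for A, B and C. Not every library correlated best with its own letter. Values this near 0 gave no sign of pairing by letter, but with 3 libraries a tissue they cannot exclude it. With a replicate block on the letter, an alternative chosen after seeing the data, 61 genes were higher and 5633 lower in skin, and of the pathway genes 4 were higher and 20 lower. Tyk2, Il7r, Il21r, Il10ra, Socs1, Pias3 and Tbx21 were not called in it (adjusted p 0.0516 to 0.149). Ptpn6 was called lower with the block (adjusted p 0.0429 in edgeR) and Hif1a higher (adjusted p 0.0283). Over all genes, 141 were higher in skin. DESeq2 gave 404, no low-count filter 77, a minimum of 10 counts in every library 81, and leaving out 1 library 71 to 324, the highest without skin Tregs A. The 6142 lower genes became 4014 at equal depth, 9 of 1396 tested with at least 10 counts in every library, a filter that removes genes at 0 in skin, and 4983 to 7787 without 1 library. Of the pathway genes, 3 were higher. DESeq2 gave 11, the minimum of 10 counts 1, and leaving out 1 library 2 to 7, again highest without skin Tregs A. The 26 lower ones became 0 of 13 tested with at least 10 counts and 20 to 34 without 1 library. The Stat6 share of the STAT sum, 24.8% of counts as a mean of SDLN libraries, was 35.0% per length.

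Some pathway genes whose fitted change was above 0 with all libraries were called lower without 1 skin library. Without skin Tregs A, the log2 fold change became -9.50 for Crlf2 (up to 0.59 without another library), -6.25 for Ifngr2 (up to 0.91), -4.89 for Socs6 (up to 2.39) and -5.60 for Bcl3 (up to 1.55). It became -14.19 for Il12rb1 without skin Tregs C (up to 1.14) and -5.13 for Oas1a without skin Tregs B (up to 3.49). Depth sets the floor of the skin values. With 3748669 counts in skin Tregs A, a gene under 0.800 CPM there had fewer than 3 counts, which is within what a count of 0 allows. The SDLN libraries drawn down to 3748669 counts still held 1236, 1376 and 756 Stat6 counts.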
